A study of Oryctolagus cuniculus with 9 samples.

Results

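The genes described here are those of the hypoxia-inducible factor (HIF) pathway, a set of genes that HIF is known to switch on, and the enzymes and transporters of glycolysis. They were taken from a list of 40 symbols, and a gene was counted as a member where a row of the expression table carried its symbol as the gene name. Of the 40 symbols, 35 had such a row, each exactly 1, among the 19511 loci of the table. All 35 passed the expression filter of at least 1 FPKM (fragments scaled by transcript length and by the fragments of the library) in at least 3 libraries. The 5 symbols without a row of their own were ARNT, SLC2A3, PFKL, ALDOA and PGAM1.

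RNA of rabbit primary cells labelled as parathyroid cells was sequenced in 9 libraries, 3 in each of 3 groups. Control cells were untreated and are labelled wild type and day 0. H/R cells, the culture model of ischaemia and reperfusion, had 6 h of hypoxia followed by 6 h of reoxygenation. GA+H/R cells received gallic acid, a plant phenolic acid, at 1200 µM over the 24 h that preceded the identical hypoxia and reoxygenation steps. The genotype field of the injured groups holds only the name of the injury, with GA added for the pretreated cells, and the labels name no transgene. Whether the H/R cells were also kept for 24 h, without the acid, is not given, and the groups may differ in culture time. The labels do not tie libraries to separate animals or cultures, so p-values measure the spread between libraries, which may be technical.

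HIF is a dimer of an oxygen-labile alpha subunit, encoded by HIF1A or EPAS1, and a stable partner encoded by ARNT. In oxygenated cells the prolyl hydroxylases EGLN1 and EGLN3 mark the alpha subunit for degradation through VHL, and the asparaginyl hydroxylase HIF1AN blocks its transcriptional activity. Since this control acts on protein, the mRNA of an alpha subunit does not report HIF activity. When oxygen is low, HIF raises the mRNA of glucose transporters, most glycolytic enzymes, lactate export, the brake on pyruvate oxidation PDK1, and genes of pH control, vessel tone and mitophagy. Reoxygenation restores hydroxylation.

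Library scale limits every statement of direction. The deposited FPKM of nearly the whole table differed between groups, with median log2 changes over 10996 loci of -1.25 in H/R versus control, -0.50 in GA+H/R versus H/R and -1.77 in GA+H/R versus control. The main counts of called genes are therefore given on a second scale as well. There every library was divided by a factor that puts its median locus level with the other libraries. These values are called scaled FPKM, and changes on that scale are changes relative to the median locus. Marker levels are given as deposited FPKM only, and log2 changes of named genes from further lists only relative to the median locus. Read depth is unknown. Control 1 stood apart from controls 2 and 3 in many of the genes described here, so calls that turn on it are given with and without it. The labelled cell type was not borne out by its defining genes: PTH, the parathyroid hormone gene, was at 0.123 ± 0.0232, 0.0240 ± 0.0124 and 0.0172 ± 0.0234 FPKM in control, H/R and GA+H/R (SD, n = 3), and no row carried the names CASR or GCM2. Of 13 parathyroid markers 10 were in the table, with a summed level of 18.4 to 35.0 FPKM in control, 8.31 to 8.91 in H/R and 4.49 to 4.76 in GA+H/R. Fibroblast markers, 10 of 12 in the table, summed to between 128700 and 193100 FPKM in control, 29400 and 29480 in H/R, and 13920 and 14080 in GA+H/R. Macrophage markers, 8 of 12 in the table, summed to 4.30 FPKM in control 1, 50.5 and 54.7 in controls 2 and 3, 17.2 to 17.5 in H/R and 110 to 119 in GA+H/R. Adipocyte markers, 3 of 5 in the table, summed to 269 to 585, 169 to 184 and 103 to 105 FPKM, and endothelial markers, 8 of 9, to 2.52 to 9.48, 0.850 to 3.76 and 2.06 to 2.29. Epithelial markers (6 of 7) and erythroid markers (2 of 6) stayed under 1 FPKM in every library. These sums are on the deposited scale, where the median locus fell as well. Relative to the median locus, 0 rose and 1 fell of 4 parathyroid markers tested in H/R versus control. Of 8 fibroblast markers 1 rose and 6 fell, and of 5 macrophage markers 2 rose and 0 fell. Of 2 endothelial markers 1 rose and 0 fell, and the 1 adipocyte marker was not called. Over all loci 29.2% rose and 28.4% fell. In such bulk samples fewer cells of a type and less RNA per cell cannot be told apart, and the part of cell makeup in the results below was not tested.

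Relative to the median locus, H/R cells had less mRNA of HIF1A, HIF1AN and the hypoxia-inducible hexokinase HK2 than controls. They had more of the glycolytic enzymes GAPDH, TPI1, GPI, PFKM and ENO1, and of BNIP3. The other enzymes of upper and lower glycolysis with a row of their own, apart from HK2, were not called. Of 22 short housekeeping transcripts, described below, 19 rose and 1 fell in H/R versus control. In this comparison 9 of the 35 genes rose, 5 fell and 21 were not called (limma, adjusted p under 0.05 over 10956 loci). Over all loci tested 29.2% rose and 28.4% fell, so the share of genes called here, 14 of 35, was below that of the table. The median log2 change of the 35 genes was 0.10, against 0.0028 over all loci. On the deposited scale 0 rose and 34 fell, where 4.18% of all loci rose and 86.0% fell, so 8 of the 9 genes that rose relative to the median locus fell in deposited FPKM. With libraries set to equal totals, where the median locus itself shifted by -0.24 on the log2 scale, 5 of the 35 rose and 12 fell, as did 19.3% and 41.1% of loci. Each of the directions that follow is relative to the median locus unless the deposited scale is named.

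**Figure D1:**
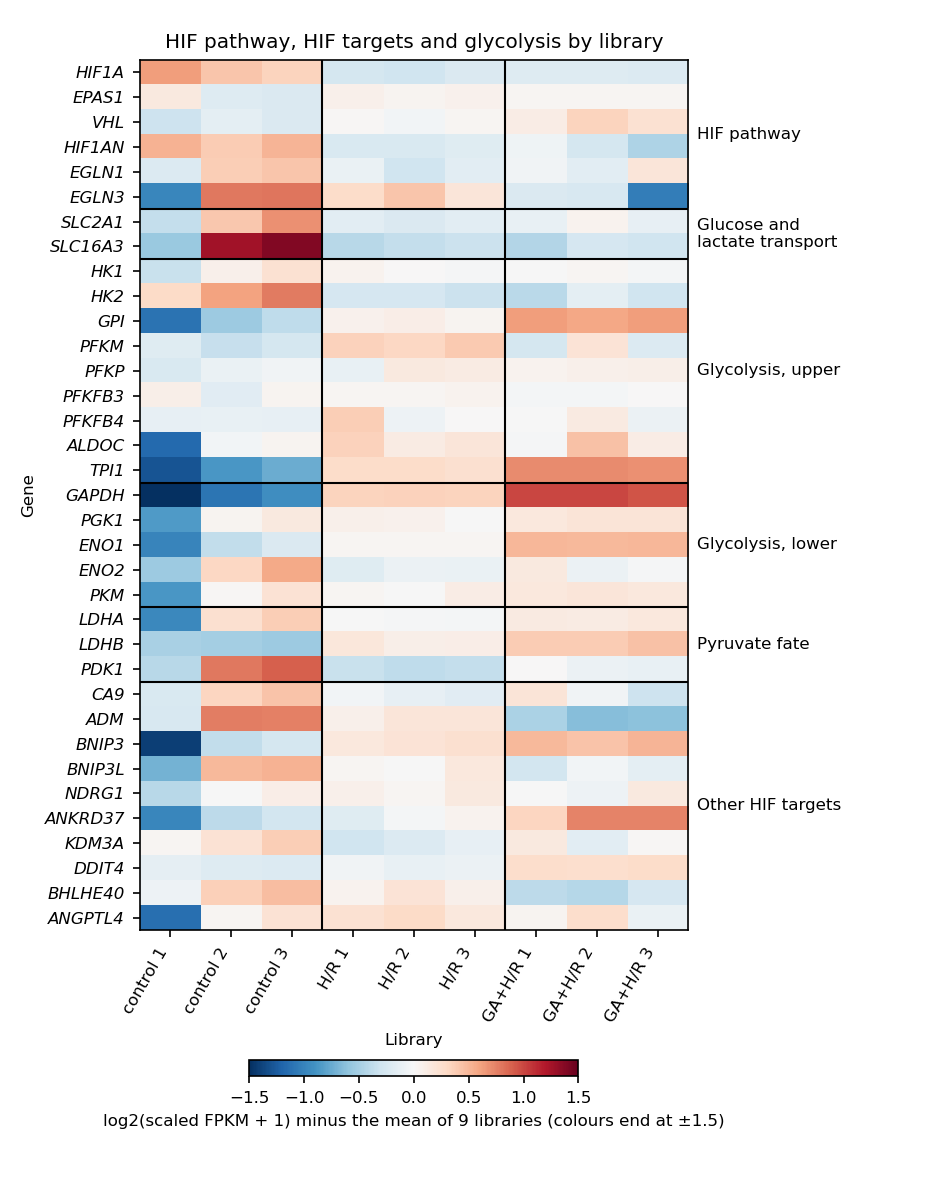
Heat map of the 35 genes (rows, grouped by role) in the 9 libraries (columns). Colour is log2(scaled FPKM + 1) minus the gene's mean over the 9 libraries, with red above and blue below; GAPDH, TPI1 and GPI step up from control to H/R to GA+H/R, and control 1 differs from controls 2 and 3 in many rows.

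**Figure D2:**
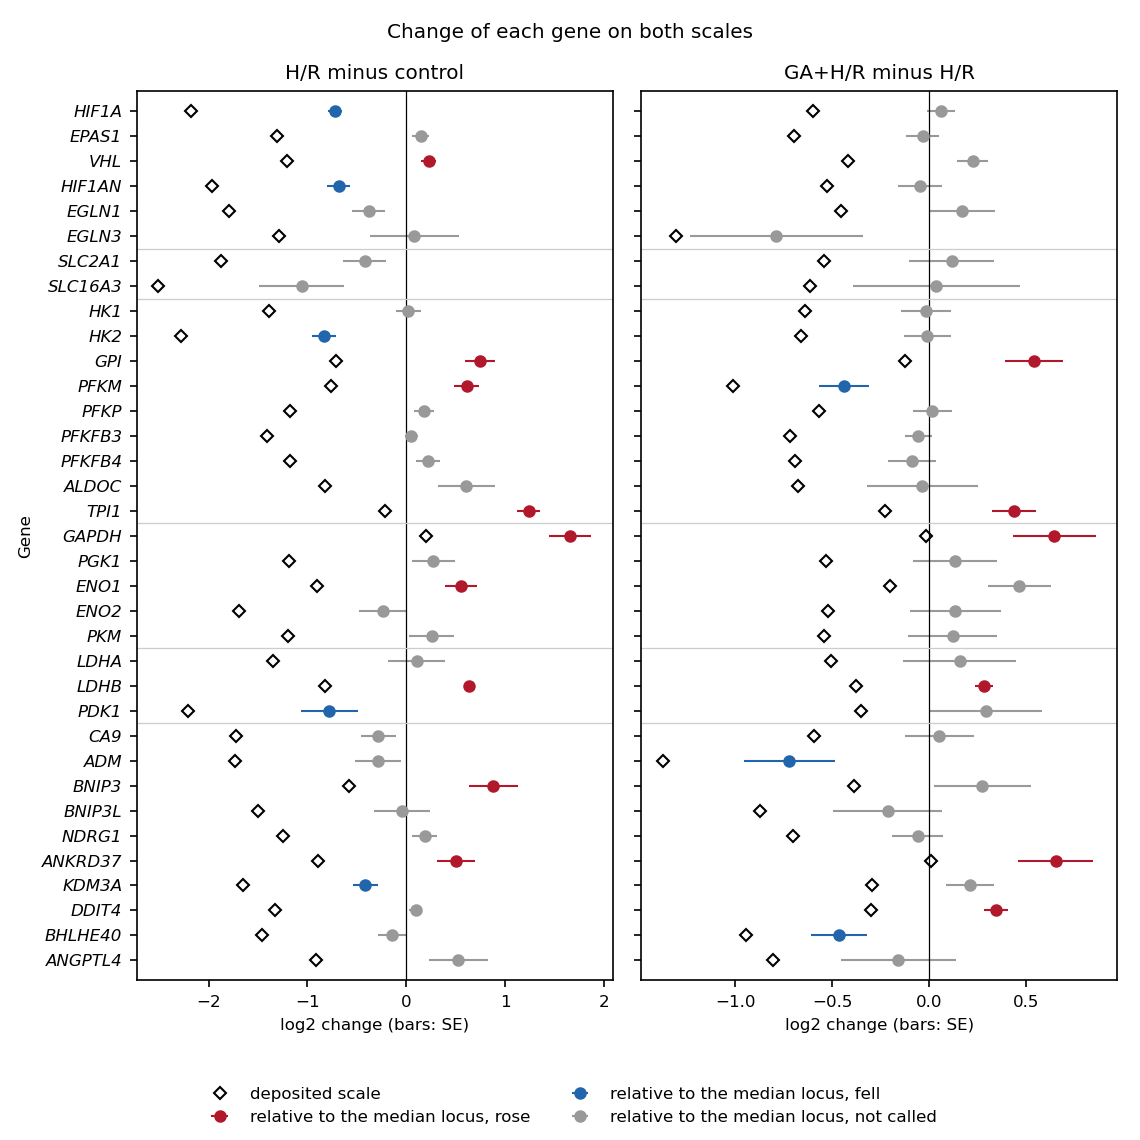
Log2 change of each gene in H/R minus control (left) and GA+H/R minus H/R (right). Filled circles with SE bars are relative to the median locus (red rose, blue fell, grey not called), and open diamonds are deposited FPKM, which lie left of the circles for every gene; GAPDH lies near 0 on the deposited scale.

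Among the HIF subunits, HIF1A fell in H/R and did not differ detectably with gallic acid. HIF1A was at 1251, 1083 and 1020 scaled FPKM in controls 1 to 3, at 674, 658 and 694 in H/R and at 706, 706.5 and 701 in GA+H/R. All 3 controls lay above all 6 injured libraries. The log2 change was -0.72 ± 0.07 in H/R versus control (SE, limma adjusted p = 3.77e-05), a 1.65-fold lower level, and -0.66 ± 0.07 in GA+H/R versus control (adjusted p = 3.57e-05). Between GA+H/R and H/R the log2 difference was 0.06 ± 0.07 (adjusted p = 0.534). HIF1A is also among the genes that fell in deposited FPKM in all 3 comparisons, by log2 changes of -2.18, -0.60 and -2.78 for H/R versus control, GA+H/R versus H/R and GA+H/R versus control.

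EPAS1, the other alpha subunit, was at 1395, 1106 and 1086 scaled FPKM in the controls, 1330, 1301 and 1314 in H/R and 1283, 1286 and 1284 in GA+H/R. Control 1 lay above every injured library, and controls 2 and 3 below them all. Its log2 change relative to the median locus was 0.15 ± 0.09 in H/R versus control and was not called (limma adjusted p = 0.174); without control 1 it was 0.28 ± 0.02 (adjusted p = 6.98e-06). The balance of the 2 subunits, taken as a ratio inside each library, does not depend on how libraries are scaled. A shift that goes with transcript length, described below, can remain in such a ratio, and its part was not tested. The log2 ratio of EPAS1 to HIF1A FPKM was 0.16, 0.03 and 0.09 in the controls, 0.98, 0.98 and 0.92 in H/R and 0.86, 0.86 and 0.87 in GA+H/R. Every injured library lay above every control, with a mean difference of 0.87 for H/R and of 0.77 for GA+H/R (exact two-sided permutation p = 0.1 each, the smallest that 3 against 3 libraries can give). It was lower in GA+H/R than in H/R by 0.10 log2 units, again without overlap (exact permutation p = 0.1).

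ARNT had no row of its own: a locus whose name joins CTSK, a lysosomal protease gene, and ARNT was at 1418 ± 83.8, 343 ± 6.73 and 194 ± 5.47 deposited FPKM in control, H/R and GA+H/R (SD, n = 3). That joint level cannot be divided between the 2 genes, so no value is given for ARNT.

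Of the genes that restrain HIF, HIF1AN fell with H/R and VHL rose slightly. HIF1AN was at 9.16, 8.26 and 9.11 scaled FPKM in the controls, 5.07, 5.06 and 5.23 in H/R and 5.77, 4.92 and 4.16 in GA+H/R, with every control above every injured library. Its log2 change was -0.69 ± 0.11 in H/R (limma adjusted p = 0.000836) and -0.73 ± 0.11 in GA+H/R versus control (adjusted p = 0.000358). VHL, the substrate receptor of the ligase that marks HIF alpha for degradation, was at 37.7, 42.2 and 40.1 in the controls, 47.5, 45.3 and 47.8 in H/R and 50.8, 59.3 and 55.0 in GA+H/R. The 3 groups did not overlap. VHL rose by 0.23 ± 0.08 in H/R versus control (adjusted p = 0.0362) and by 0.45 ± 0.08 in GA+H/R versus control (adjusted p = 0.000804) relative to the median locus, but its change in H/R turned to -0.06 when libraries were set to equal totals, and it fell in deposited FPKM (log2 change -1.20). The call in H/R ended when control 1, control 3 or any 1 of the H/R libraries was left out.

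The prolyl hydroxylases were not called relative to the median locus in any comparison with all 9 libraries, although both fell in deposited FPKM throughout. EGLN1, the main oxygen-sensing hydroxylase, was at 25.1, 37.7 and 39.1 scaled FPKM in the controls, 27.0, 23.5 and 25.9 in H/R and 27.8, 25.8 and 33.1 in GA+H/R. Control 1 lay among the injured libraries, controls 2 and 3 above them. Without control 1, EGLN1 was lower in H/R by a log2 change of -0.56 ± 0.11 (limma adjusted p = 0.00324), against -0.38 ± 0.17 with it (adjusted p = 0.0820).

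EGLN3, itself strongly induced by HIF, varied most among the controls of this role. It was at 6.30, 23.9 and 24.1 scaled FPKM in the controls, 16.4, 18.1 and 15.2 in H/R, and 11.3, 11.1 and 6.01 in GA+H/R. GA+H/R lay below H/R in all libraries, while control 1 was near the lowest GA+H/R library. The log2 change of EGLN3 was -0.79 ± 0.45 in GA+H/R versus H/R (limma adjusted p = 0.204) and -0.78 ± 0.20 when control 1 was left out of the shared spread (adjusted p = 0.0154). As a log2 ratio, EGLN3 to EGLN1 was -0.72, -0.37 and -0.77 in H/R and -1.30, -1.21 and -2.46 in GA+H/R, a difference of -1.04 without overlap (exact permutation p = 0.1), which became -0.64 without GA+H/R replicate 3.

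The transporters of glucose and lactate gave no call relative to the median locus with all 9 libraries, although both fell in deposited FPKM versus control. SLC2A1, the basal glucose transporter GLUT1, averaged 209 ± 71.1, 149.5 ± 3.38 and 162 ± 11.7 scaled FPKM in control, H/R and GA+H/R (SD, n = 3). SLC16A3, the lactate exporter MCT4, averaged 229 ± 129, 93.3 ± 3.39 and 95.9 ± 6.50. The spread of the controls was far wider than that of H/R for both genes, with control 1 the low library. The locus that the table describes as the SLC2A3 transporter, without giving it that symbol, fell from 912 ± 167 to 172 ± 5.32 and 70.6 ± 5.14 deposited FPKM, and it also fell relative to the median locus in H/R versus control (log2 change -0.93 ± 0.15, limma adjusted p = 0.000796) and in GA+H/R versus H/R (-0.62 ± 0.15, adjusted p = 0.0142).

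In upper glycolysis, 9 of 11 enzymes had a row, of which 3 rose, 1 fell and 5 were not called in H/R versus control. Over all loci 29.2% rose and 28.4% fell. On the deposited scale all 9 fell, as did 86.0% of loci. HK2 was the one that fell relative to the median locus. It phosphorylates glucose at the outer mitochondrial membrane and is the hexokinase that hypoxia induces, whereas HK1 is the constitutive form. HK2 was at 140, 175 and 198 scaled FPKM in the controls, 96.1, 96.5 and 91.5 in H/R and 86.2, 104 and 92.9 in GA+H/R. All controls lay above all injured libraries, and H/R and GA+H/R overlapped. The log2 change of HK2 was -0.83 ± 0.12 in H/R (limma adjusted p = 0.000416) and -0.84 ± 0.12 in GA+H/R versus control (adjusted p = 0.000246). HK1 averaged 29.4 ± 5.82, 29.5 ± 0.733 and 29.1 ± 0.555 scaled FPKM and was not called.

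The ratio of the 2 hexokinases separated controls from injured cells with little spread, control 1 included. The log2 ratio of HK2 to HK1 was 2.61, 2.50 and 2.53 in the controls, 1.67, 1.72 and 1.66 in H/R and 1.57, 1.81 and 1.70 in GA+H/R. It differed by -0.86 in H/R and by -0.86 in GA+H/R versus control, without overlap (exact permutation p = 0.1 each), and by 0.01 between the injured groups, which overlapped (exact permutation p = 1).

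GPI, the isomerase that follows hexokinase, was at 885, 1297 and 1457 scaled FPKM in the controls, 1992, 2036 and 1954 in H/R and 2931, 2844 and 2925 in GA+H/R. The groups did not overlap and stepped upward. GPI rose by 0.75 ± 0.15 in H/R versus control (limma adjusted p = 0.00262) and by 0.54 ± 0.15 in GA+H/R versus H/R (adjusted p = 0.0236) relative to the median locus; in deposited FPKM it fell against control by a log2 change of -0.71 in H/R and was not called between the injured groups (-0.12).

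TPI1, the triose phosphate isomerase, followed the same order. Its scaled FPKM was 677, 903 and 988 in the controls, 2015, 2011 and 1968 in H/R and 2715, 2724 and 2680 in GA+H/R. It rose 2.36-fold in H/R (log2 change 1.24 ± 0.12, limma adjusted p = 2.83e-05) and 3.20-fold in GA+H/R versus control (1.68 ± 0.12, adjusted p = 2.14e-06). The difference between GA+H/R and H/R, 0.44 ± 0.12 (adjusted p = 0.0192), turned to -0.01 under quantile normalization, and TPI1 fell in all 3 comparisons of deposited FPKM.

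PFKM, the muscle-type subunit of phosphofructokinase, rose in H/R and fell again with gallic acid. It was at 13.1, 11.5 and 12.3 scaled FPKM in the controls, 19.2, 18.8 and 20.0 in H/R and 12.3, 17.3 and 12.8 in GA+H/R. The H/R libraries lay above all the others, and GA+H/R overlapped the controls. The log2 change of PFKM was 0.61 ± 0.13 in H/R versus control (limma adjusted p = 0.00303) and -0.44 ± 0.13 in GA+H/R versus H/R (adjusted p = 0.0268); the call with gallic acid ended under 6 of 18 alternative settings, and on the deposited scale it fell in both comparisons. PFKM is the only one of the 35 genes that was called in opposite directions in these comparisons, which share the H/R libraries.

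None of the other upper enzymes with a row of its own was called with all 9 libraries. PFKP, the platelet-type phosphofructokinase subunit, averaged 11.8 ± 0.820, 13.5 ± 1.39 and 13.6 ± 0.210 scaled FPKM. PFKFB3 and PFKFB4, whose products make and break the activator of phosphofructokinase and are known hypoxia targets, averaged 328.5 ± 31.1, 339 ± 4.23 and 326 ± 4.09, and 17.4 ± 0.0629, 20.7 ± 3.72 and 19.2 ± 1.55. None of these 3 genes was called relative to the median locus, and their log2 changes in H/R versus control were 0.18, 0.05 and 0.22; all 3 fell in deposited FPKM. The ratio of PFKFB3 to PFKFB4 overlapped between the groups in all 3 comparisons. ALDOC, the brain-type aldolase, averaged 37.0 ± 14.95, 53.2 ± 4.35 and 52.3 ± 8.77, a log2 change of 0.61 ± 0.29 in H/R versus control (limma adjusted p = 0.0999); without control 3 it was 0.83 (adjusted p = 0.0459), and without control 1 0.23 (adjusted p = 0.160). A locus that joins ALDOA, the main aldolase outside liver and brain, with an unnamed neighbour rose by 1.11 ± 0.11 in H/R (adjusted p = 4.62e-05) and by 0.39 ± 0.11 in GA+H/R versus H/R (adjusted p = 0.0270) relative to the median locus, and it fell in deposited FPKM. The locus that the RefSeq gene identifier (rabbit assembly) assigns to PFKL was at 6.94 ± 1.98, 3.03 ± 0.0840 and 1.73 ± 0.230 deposited FPKM and was not called relative to the median locus.

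In lower glycolysis 5 of 6 enzymes had a row, of which GAPDH and ENO1 rose in H/R versus control and 3 were not called. Over all loci 29.2% rose and 28.4% fell. On the deposited scale 4 fell and GAPDH was not called, where 86.0% of loci fell. GAPDH, which makes the NADH of glycolysis, was at 1367, 2452 and 2738 scaled FPKM in the controls, 6575, 6657 and 6596 in H/R and 10500, 10440 and 10100 in GA+H/R. The 3 groups were far apart. GAPDH was 3.16-fold higher in H/R (log2 change 1.66 ± 0.21, limma adjusted p = 0.000184) and 4.94-fold higher in GA+H/R than in control (2.31 ± 0.21, adjusted p = 1.34e-05). In deposited FPKM it averaged 3988 ± 1145, 4434 ± 32.9 and 4379 ± 89.4 (SD, n = 3), with no call in any comparison. GAPDH is a common reference gene, and mammalian genomes carry many processed copies of it; how reads shared with such copies were assigned is not given in the sources used here, so its level is uncertain.

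ENO1, the ubiquitous enolase, was at 2136, 3304 and 3670 scaled FPKM in the controls, 4352, 4338 and 4333 in H/R and 6026, 5954 and 6003 in GA+H/R. The groups stepped upward without overlap. It rose by 0.55 ± 0.16 in H/R (limma adjusted p = 0.0180) and by 1.02 ± 0.16 in GA+H/R versus control (adjusted p = 0.000481), and without control 1 by 0.33 ± 0.04 and 0.79 ± 0.04 (adjusted p = 9.01e-05 and 2.88e-07). The difference between the injured groups was 0.47 ± 0.16 (adjusted p = 0.0571), and 0.46 ± 0.03 without control 1 (adjusted p = 1.95e-05). In deposited FPKM ENO1 fell against control in both injured groups.

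ENO2, the neuronal enolase and a hypoxia target, was not called with all 9 libraries, and its ratio to ENO1 was lower in each group in turn. The log2 ratio of ENO2 to ENO1 was -4.24, -4.00 and -3.90 in the controls, -4.90, -4.80 and -4.81 in H/R and -5.04, -5.26 and -5.20 in GA+H/R. No library of a group overlapped with another group. The ratio differed by -0.79 in H/R versus control, by -0.33 in GA+H/R versus H/R and by -1.12 in GA+H/R versus control (exact permutation p = 0.1 each). PGK1, the first ATP-forming step, averaged 864 ± 288, 999 ± 31.8 and 1095 ± 16.3 scaled FPKM, and PKM, the last, 325 ± 115, 370.5 ± 15.0 and 403 ± 3.60. Neither was called with all 9 libraries, and without control 3 both were called higher in GA+H/R versus control (log2 changes 0.59 and 0.60, limma adjusted p = 0.0387 and 0.0390). Without control 1 the log2 changes of PGK1 and PKM were 0.10 and 0.06 (limma adjusted p = 0.0461 and 0.38), and PKM was not called. No locus was analysed here for PGAM1.

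At the fate of pyruvate, LDHB rose and PDK1 fell in H/R relative to the median locus, and the sign for LDHA depended on control 1; all 3 fell in deposited FPKM. LDHB, the lactate dehydrogenase subunit that favours lactate oxidation and is not a classical HIF target, was at 322, 317 and 310 scaled FPKM in the controls, 508, 480 and 485 in H/R and 589, 589 and 616 in GA+H/R. The groups did not overlap, and control 1 lay with controls 2 and 3. LDHB rose by 0.63 ± 0.05 in H/R (limma adjusted p = 5.62e-06) and by a further 0.28 ± 0.05 in GA+H/R versus H/R (adjusted p = 0.00195) relative to the median locus, and it fell in deposited FPKM in both comparisons (log2 changes -0.82 and -0.38).

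LDHA, the subunit that favours lactate formation and a classical HIF target, was at 270, 627 and 684 scaled FPKM in the controls, 528, 524 and 521 in H/R and 584, 577 and 594 in GA+H/R. Control 1 lay below every injured library and controls 2 and 3 above H/R, with GA+H/R between. Its log2 change in H/R was 0.10 ± 0.29 (adjusted p = 0.779) with control 1 and -0.30 ± 0.04 without it (adjusted p = 0.000185), and in GA+H/R versus control 0.26 ± 0.29 with it and -0.15 ± 0.04 without it (adjusted p = 0.00620). As a log2 ratio, LDHA to LDHB was -0.25, 0.99 and 1.14 in the controls, 0.06, 0.13 and 0.10 in H/R and -0.01, -0.03 and -0.05 in GA+H/R. GA+H/R lay below H/R by 0.13 without overlap (exact permutation p = 0.1), whereas control 1 lay on the far side of both.

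PDK1, the kinase that turns off pyruvate dehydrogenase, was at 35.5, 83.2 and 90.0 scaled FPKM in the controls, 37.7, 36.5 and 37.2 in H/R and 47.8, 44.8 and 44.3 in GA+H/R. Control 1 lay just below the H/R libraries, and the other controls were more than double them. The log2 change in H/R was -0.78 ± 0.29 (limma adjusted p = 0.0459), a call that ended under 12 of 18 alternatives, and was -1.18 ± 0.07 without control 1 (adjusted p = 1.86e-06). PDK1 fell in H/R on the deposited scale too (log2 change -2.21).

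Of the 10 other HIF targets, BNIP3 and ANKRD37 rose, KDM3A fell and 7 were not called in H/R versus control, fewer than the 29.2% and 28.4% of all loci, whereas on the deposited scale all 10 fell. Without control 1, 1 rose and 5 fell, where 30.9% and 28.5% of all loci did. BNIP3, a mitophagy receptor of the outer mitochondrial membrane, was at 169, 349 and 375 scaled FPKM in the controls, 503, 520 and 530 in H/R and 633, 603 and 642.5 in GA+H/R. Both injured groups lay above all controls. It rose by 0.88 ± 0.25 in H/R (limma adjusted p = 0.0148) and by 1.16 ± 0.25 in GA+H/R versus control (adjusted p = 0.00283), with 0.53 ± 0.04 and 0.80 ± 0.04 without control 1; it fell in deposited FPKM.

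BNIP3L, the related receptor NIX, did not follow BNIP3. It was at 133, 306 and 313 scaled FPKM in the controls, 221, 216 and 242.5 in H/R and 179, 211 and 196 in GA+H/R, and was not called with all 9 libraries. Control 1 lay below every injured library and controls 2 and 3 above them all. Without control 1, BNIP3L was called lower in all 3 comparisons, by log2 changes of -0.43 ± 0.07 in H/R versus control, -0.22 ± 0.07 in GA+H/R versus H/R and -0.65 ± 0.07 in GA+H/R versus control (limma adjusted p = 0.00128, 0.0291 and 8.08e-05). The log2 ratio of BNIP3 to BNIP3L, free of library scale, was 0.35, 0.19 and 0.26 in the controls, 1.19, 1.27 and 1.13 in H/R and 1.82, 1.52 and 1.71 in GA+H/R. The 3 groups did not overlap, and control 1 lay close to the other controls. The ratio was higher by 0.93 log2 units in H/R than in control, by 0.49 in GA+H/R than in H/R and by 1.42, or 2.67-fold, in GA+H/R than in control (exact permutation p = 0.1 each).

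**Figure D3:**
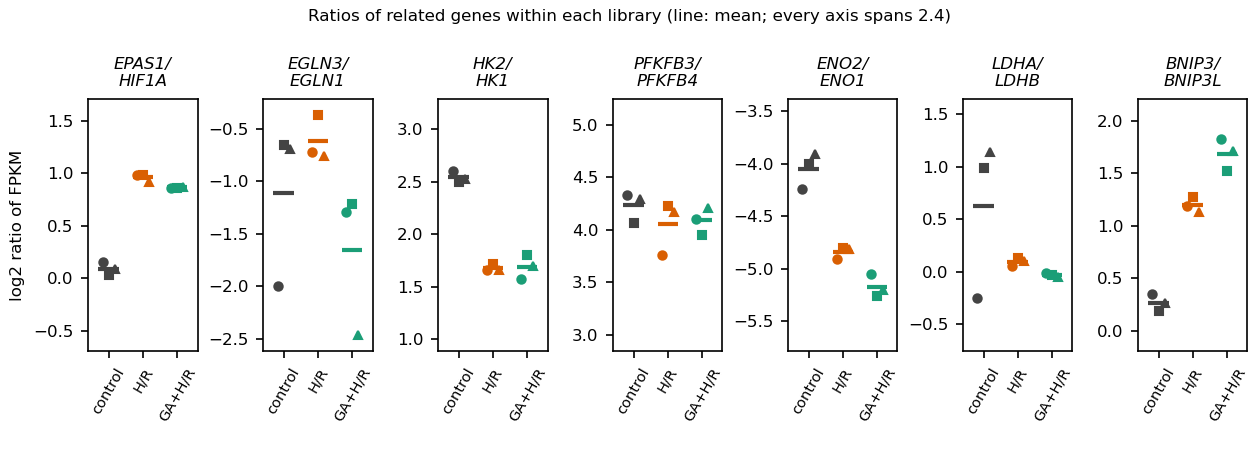
Log2 ratio of FPKM of 7 pairs of related genes in each library (circle, square and triangle are replicates 1, 2 and 3, lines are group means, and every vertical axis spans the same range). The groups are apart for EPAS1/HIF1A, ENO2/ENO1 and BNIP3/BNIP3L, HK2/HK1 separates controls from both injured groups, and control 1 stands apart for LDHA/LDHB and EGLN3/EGLN1.

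Of 11 pairs of related genes listed, 7 had both genes in the table, giving 21 comparisons. In 13 of the 21 the groups did not overlap. The adjusted p over the 21 exact permutation tests was 0.162 for each of those, so none can pass a threshold of 0.05 with 3 libraries a group. How often other gene pairs fail to overlap was not counted, so the 13 cannot be read as particular to these pairs.

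ANKRD37, a small ankyrin-repeat protein gene that HIF1 induces, was at 12.9, 19.9 and 21.7 scaled FPKM in the controls, 23.3, 26.0 and 27.5 in H/R and 33.3, 44.99 and 45.03 in GA+H/R. The groups stepped up without overlap. Its log2 change was 0.50 ± 0.19 in H/R (limma adjusted p = 0.0495), a call that ended under 14 of 18 alternatives, and 0.65 ± 0.19 in GA+H/R versus H/R (adjusted p = 0.0288). In deposited FPKM it fell in H/R and was level with gallic acid (0.01).

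KDM3A, a histone H3 lysine 9 demethylase, was at 5.42, 6.29 and 7.08 scaled FPKM in the controls, 4.11, 4.44 and 4.76 in H/R and 5.97, 4.63 and 5.33 in GA+H/R. H/R lay below all controls, and GA+H/R overlapped both groups. The log2 change in H/R was -0.41 ± 0.12 (limma adjusted p = 0.0183), a call that ended without control 2, control 3 or H/R replicate 1 (adjusted p = 0.0583, 0.0802 and 0.0624), and KDM3A fell on the deposited scale as well.

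DDIT4, the gene of the mTOR inhibitor REDD1, was called in both comparisons of the gallic acid group. It was at 38.3, 36.4 and 36.2 scaled FPKM in the controls, 40.4, 38.8 and 39.5 in H/R and 50.6, 50.0 and 50.8 in GA+H/R. GA+H/R lay clear of both other groups. The log2 change was 0.09 ± 0.06 in H/R versus control (limma adjusted p = 0.222) and 0.34 ± 0.06 in GA+H/R versus H/R (adjusted p = 0.00332), and DDIT4 fell in deposited FPKM in both comparisons (-1.33 and -0.30). Whether the 2 changes differ was not tested.

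ADM and BHLHE40 fell with gallic acid, and the call of each against H/R ended under 7 of 18 alternative settings. ADM encodes the vasodilator adrenomedullin and was at 157, 317 and 312 scaled FPKM in the controls, 194.5, 210 and 210 in H/R and 133, 119 and 120 in GA+H/R. GA+H/R lay below all other libraries. ADM fell by 0.72 ± 0.23 on the log2 scale against H/R (limma adjusted p = 0.0418) and its log2 change versus control was -1.002 ± 0.23 (adjusted p = 0.00415), and it fell in deposited FPKM in all 3 comparisons.

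BHLHE40, a transcriptional repressor of the circadian system, was at 7.52, 10.5 and 11.4 scaled FPKM in the controls, 8.29, 9.36 and 8.45 in H/R and 5.83, 5.70 and 6.52 in GA+H/R. Here too GA+H/R lay below all other libraries. The log2 change was -0.47 ± 0.14 against H/R (limma adjusted p = 0.0345) and -0.61 ± 0.14 against control (adjusted p = 0.00457), and BHLHE40 fell in deposited FPKM in all 3 comparisons. In H/R versus control BHLHE40 was not called with all 9 libraries (-0.14 ± 0.14) and fell without control 1 (-0.28 ± 0.10, adjusted p = 0.0416). The remaining targets were not called relative to the median locus with all 9 libraries: CA9, the cell-surface carbonic anhydrase, averaged 78.8 ± 18.0, 63.5 ± 2.99 and 66.5 ± 11.7 scaled FPKM, NDRG1 47.6 ± 8.70, 53.7 ± 2.26 and 51.6 ± 4.38, and ANGPTL4, a lipoprotein lipase inhibitor, 51.3 ± 22.2, 68.9 ± 3.12 and 61.8 ± 7.85. Without control 1, CA9 was called lower in H/R versus control (-0.47 ± 0.13, adjusted p = 0.0142) and in GA+H/R versus control (-0.42 ± 0.13, adjusted p = 0.0186).

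Between GA+H/R and H/R as a whole, 6 of the 35 genes rose (GAPDH, ANKRD37, GPI, TPI1, DDIT4 and LDHB) and 3 fell (ADM, BHLHE40 and PFKM) relative to the median locus, with 26 not called. Over all loci 18.7% rose and 15.2% fell. GAPDH was higher by 0.65 ± 0.21 (limma adjusted p = 0.0440). That SE rests on a spread shared by all 9 libraries, control 1 included. In the 6 libraries of the 2 groups alone it was 0.65 ± 0.015 (limma adjusted p = 2.37e-07). On the deposited scale 0 rose and 27 fell, against 1.69% and 64.3% of all loci. Of the 6 that rose relative to the median locus, 5 had also risen in H/R versus control; both comparisons rest on the same H/R libraries. Fitted in the 6 libraries of the 2 groups only, 12 genes rose and 4 fell, where 20.9% and 17.3% of 10680 loci did. Each of the 9 calls was lost under at least 1 of 18 alternatives. The call ended under 9 for GAPDH, 8 for GPI, and 7 each for ADM and BHLHE40. It ended under 6 each for PFKM and ANKRD37, and under 1 each for DDIT4 and LDHB. For TPI1 it ended under 4, and the sign turned under 1 more.

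Against control, GA+H/R gave 9 genes that rose (GAPDH, TPI1, GPI, ANKRD37, BNIP3, ENO1, LDHB, VHL and DDIT4), 5 that fell (ADM, HK2, HIF1AN, HIF1A and BHLHE40) and 21 not called, where 33.7% of all loci rose and 35.5% fell. In deposited FPKM 0 rose and 34 fell, against 4.10% and 90.1% of loci. With equal totals, where the median locus shifted by -0.37, 7 rose and 16 fell, as did 24.0% and 49.0% of loci. This comparison shares its controls with H/R versus control. In the authors' deposited table, whose test spans the 3 groups at once, 34 of the 35 genes were marked significant (97.1%), as were 10917 of the 19511 loci (56.0%).

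Relative to the median locus control 1 was the lowest control for 27 of the 35 genes (77.1%), as it was for 38.9% of the 10956 loci, and the highest for 7 genes (20.0%), as for 45.2% of loci. The median log2 difference between control 1 and the mean of controls 2 and 3 was -0.60 over the 35 genes and 0.02 over all loci. In 9 of the 35 genes (25.7%) control 1 was lower by at least 1 log2 unit, as in 2.04% of loci. Controls 2 and 3 differed from each other by a median of 0.108 log2 units in these genes.

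The genes singled out next were chosen after their values were seen. The 9 genes lower by at least 1 were SLC16A3, EGLN3, LDHA, PDK1, ANGPTL4, BNIP3L, ALDOC, BNIP3 and ADM. SLC16A3 was at 81.3, 289 and 316.5 scaled FPKM in controls 1, 2 and 3, so control 1 held 26.8% of the mean of the others. ANGPTL4 was at 26.2, 59.6 and 68.2, and ALDOC at 19.8, 44.2 and 46.9. Among the genes that were not lower in control 1 were HIF1A, EPAS1, LDHB, PFKM, PFKFB3, DDIT4 and HIF1AN, each highest in control 1. Macrophage markers were also lowest in control 1 among all 9 libraries, and adipocyte markers highest, at 585 against 316 and 269 FPKM. Other marker sums were lower in control 1 than in controls 2 and 3. Fibroblast markers were at 128700 against 193100 and 187700 FPKM, and parathyroid markers at 18.36 against 35.03 and 34.25. Endothelial markers were at 2.523 against 9.475 and 7.005 FPKM. The part of these cell markers in the difference of control 1 was not tested. The correlation of control 1 with controls 2 and 3 over 10956 loci was 0.984 and 0.982, and that of controls 2 and 3 with each other 0.997, as a description of libraries that share their loci.

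**Figure D4:**
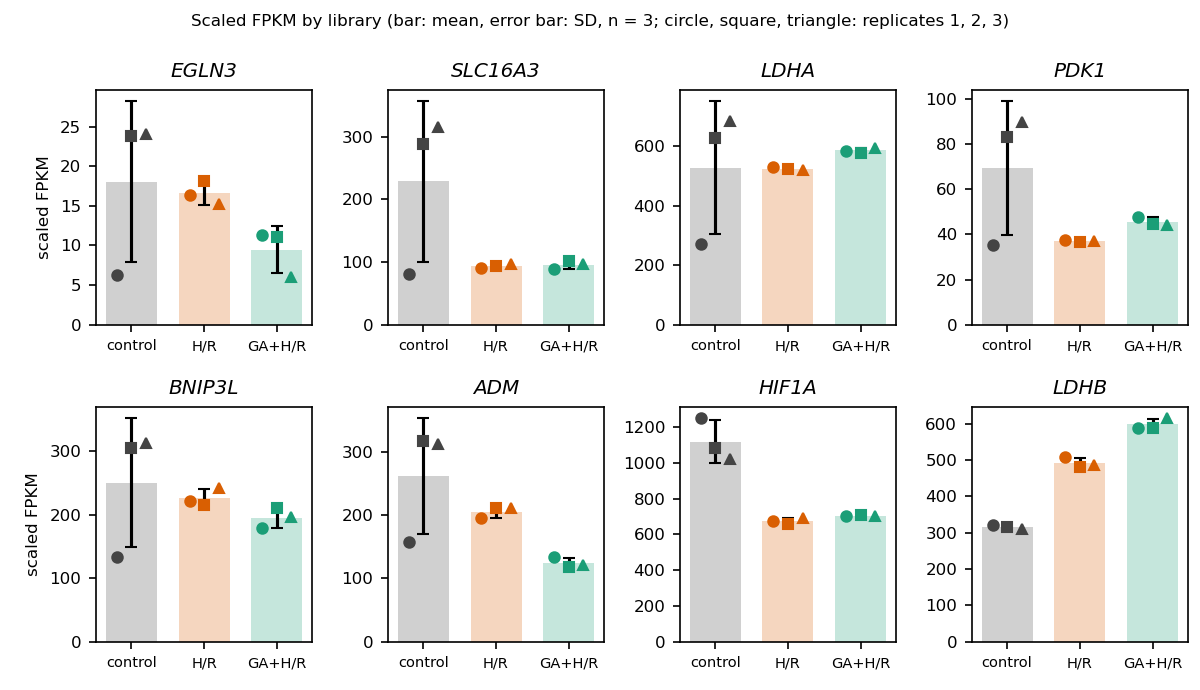
Scaled FPKM of 8 genes in each library (bars are means, error bars are SD, n = 3, and circle, square and triangle are replicates 1, 2 and 3). Control 1 (circle) lies far below controls 2 and 3 for EGLN3, SLC16A3, LDHA, PDK1, BNIP3L and ADM, lies above them for HIF1A and level with them for LDHB.

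Leaving out control 1, which was 1 of the alternatives set for every library, changed the counts. In H/R versus control 8 genes then rose and 14 fell, where 30.9% and 28.5% of 10592 loci did, and the median log2 change of the 35 genes was -0.03. SLC16A3 fell by 1.67 ± 0.07 on the log2 scale (limma adjusted p = 3.84e-07), SLC2A1 by 0.70 ± 0.09 (adjusted p = 0.000201), ADM by 0.60 ± 0.06 (adjusted p = 6.24e-05) and ENO2 by 0.55 ± 0.09 (adjusted p = 0.000896), none of them called with control 1 included. In GA+H/R versus control SLC16A3 (-1.64), EGLN3 (-1.27), PDK1 (-0.90), SLC2A1 (-0.59), ENO2 (-0.42) and EGLN1 (-0.39) were called lower, and EPAS1 (0.24) and PGK1 (0.10) higher, with adjusted p between 2.18e-07 and 0.0461. In GA+H/R versus H/R, ENO1 (0.46), PDK1 (0.28), BNIP3 (0.27), VHL (0.22), LDHA (0.15) and PGK1 (0.13) were called higher in the same way, with adjusted p between 1.95e-05 and 0.0376. In H/R versus control VHL (0.20 ± 0.08, adjusted p = 0.0588) and ANKRD37 (0.30 ± 0.14, adjusted p = 0.103) were no longer called. In GA+H/R versus control 11 rose and 14 fell, where 34.7% and 35.0% of loci did, and in GA+H/R versus H/R 12 rose and 5 fell, where 22.8% and 20.2% did. The genes that rose or fell against control with the same call both ways in H/R included GAPDH (1.37 ± 0.04 without control 1), TPI1 (1.10 ± 0.03), LDHB (0.66 ± 0.04), HK2 (-0.95 ± 0.09) and HIF1A (-0.62 ± 0.03).

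Other genes of the same pathways, from lists drawn up beside the 35, were counted relative to the median locus, beside the 29.2% of all loci that rose and 28.4% that fell in H/R versus control and the 18.7% and 15.2% in GA+H/R versus H/R. Of 15 further HIF regulators tested, 5 rose and 5 fell in H/R versus control and 3 and 3 in GA+H/R versus H/R, while on the deposited scale 0 rose and 13 fell in the first and 1 rose and 10 fell in the second. TCEB2, an elongin of the VHL ligase, rose by 1.39 ± 0.10 and RACK1, a ribosomal scaffold that can promote HIF1A degradation, by 1.11 ± 0.04 in H/R (limma adjusted p = 5.65e-06 and 3.46e-08). ARNT2, a paralog of ARNT, fell by 1.61 ± 0.30 in GA+H/R versus H/R (adjusted p = 0.00408).

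Of 31 further HIF targets tested, 5 rose and 20 fell in H/R versus control (median log2 change -0.59) and 2 rose and 10 fell in GA+H/R versus H/R (median -0.36); on the deposited scale 1 rose and 27 fell, and 0 rose and 26 fell. PLOD2, a collagen lysyl hydroxylase, fell by 1.64 ± 0.24 and ERO1A, the oxidase of disulfide formation, by 1.53 ± 0.20 in H/R, while MAFF, a small MAF transcription factor, rose by 1.82 ± 0.24 (limma adjusted p = 0.000367, 0.000196 and 0.000229). In GA+H/R versus H/R, LOXL2, a lysyl oxidase, fell by 1.15 ± 0.19 (adjusted p = 0.00196).

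Of 12 further glycolytic isozymes and transporters tested, 3 rose and 2 fell in H/R versus control and 2 rose and 1 fell in GA+H/R versus H/R; on the deposited scale 12 and 8 fell and 0 rose. SLC16A1, the lactate transporter MCT1, fell by 1.07 ± 0.11 and ADPGK, the ADP-dependent glucokinase, by 0.92 ± 0.11 in H/R (limma adjusted p = 4.82e-05 and 0.000124), whereas PGM1, phosphoglucomutase, rose by 0.66 ± 0.12 (adjusted p = 0.00138). By the table's own KEGG annotation, 12 of the 35 genes belong to HIF-1 signaling, where 29 of 76 other loci rose and 27 fell in H/R versus control. In the annotation for glycolysis and gluconeogenesis, which holds 14 of the 35, 24 of 48 other loci rose and 9 fell, beside the same shares of all loci. On the deposited scale 5 of 75 other loci of HIF-1 signaling rose and 58 fell, and 0 of 45 of glycolysis and gluconeogenesis rose and 39 fell.

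A check on transcript length belongs beside these counts, since GAPDH, TPI1 and LDHB have short mRNAs. Of 22 short housekeeping transcripts tested, 19 rose and 1 fell in H/R versus control (median log2 change 1.03 relative to the median locus), and 11 rose and 0 fell in GA+H/R versus H/R (median 0.32). Of 35 long housekeeping transcripts, 0 rose and 30 fell in the first (median -0.47) and 0 rose and 24 fell in the second (median -0.39). These counts stand beside 29.2% and 28.4% of all loci in the first comparison and 18.7% and 15.2% in the second. On the deposited scale 6 of 21 short transcripts rose and 9 fell in H/R versus control (median -0.21), and 0 rose and 8 fell in GA+H/R versus H/R, while 35 of 35 long transcripts fell in both. The part of transcript length was not tested, neither in the rise of the short glycolytic mRNAs nor in the falls and the within-library ratios given above.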

How the data were processed

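The authors deposited FPKM per locus for 9 libraries, per the file headers. The aligner and quantifier are not given in the sources used here, no read counts come with the table, and low FPKM were not multiples of whole reads, so depth is unknown. A p-value and a q-value that the authors deposited, per the file headers from a test across the 3 groups, served only to count marked genes.

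Loci at 1 FPKM or more in at least 3 libraries were kept. Values were analysed as deposited and after dividing each library by the median, over 8448 loci at 1 or more in all 9, of its value to the 9-library mean. limma 3.58.1 in R 4.3.3 was fitted to log2(value + 1), which understates changes of low genes (group means as coefficients, all 9 libraries, robust eBayes with a trend, two-sided). Benjamini-Hochberg adjustment ran over all loci tested, with calls at an adjusted p under 0.05. The procedure was also run on simulated data that had no outlying library and no transcript-length shift, and no statement here rests on that run. Gene ratios used FPKM without a pseudocount. FPKM of different loci are not on a proven common scale, so levels of different genes are not ranked.

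Library values are printed for the HIF pathway role and for up to 6 genes that rose and 6 that fell most in each comparison, others by means; up to 3 called genes of each further list are named. The members and lists were chosen with earlier results of these data known. Deviations of same-numbered libraries correlated at -0.0177 to 0.0261, and those of different-numbered libraries at -0.0254 to 0.0306. The numbers thus showed no shared effect, which does not exclude that libraries were paired. Other pseudocounts, filters, fits and scalings and leaving out each library were tried. Some genes that this rule names are not reported here.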

Additional observations from a re-analysis of the deposited data

How the results depend on the processing

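The counts of called genes relative to the median locus depended on the libraries and the scaling. Leaving out each library in turn gave 10 to 22 called genes in H/R versus control, of which 3 to 14 fell, 2 to 17 in GA+H/R versus H/R (2 to 12 rose, 0 to 5 fell) and up to 25 in GA+H/R versus control, of which up to 14 fell; the highest values are those without control 1. With equal totals 5 rose and 12 fell in H/R versus control, and 23 were called in GA+H/R versus control, of which 16 fell. In GA+H/R versus H/R, 4 were called with no filter (3 rose, 1 fell) and 16 when only those 2 groups were fitted (12 rose). Directions turned for LDHA without control 1 (range over left-out libraries -0.30 to 0.36 in H/R and -0.15 to 0.51 in GA+H/R, each versus control), VHL with equal totals (-0.057 in H/R versus control), HK1 with equal totals (-0.35 in GA+H/R versus control), TPI1 with quantile normalization (-0.0079 in GA+H/R versus H/R), PFKFB3 with quantile normalization (0.17 in GA+H/R versus control) and, on the deposited scale, GAPDH without control 1 (-0.082 to 0.34 in GA+H/R versus control). Of the calls relative to the median locus, 8 of 14 in H/R versus control, 0 of 9 in GA+H/R versus H/R and 12 of 14 in GA+H/R versus control were kept under all 18 alternatives, and on the deposited scale 30 of 34, 17 of 27 and 34 of 34 under 16. A replicate block, though the numbers showed no shared effect, gave 14, 8 and 15 calls against 14, 9 and 14. Where a value changed, the cause was not tested. Summing rows of a symbol gives the same values, since each has 1 row. The unknown depth leaves low genes such as KDM3A, HIF1AN and BHLHE40 without a counting error.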

Other observations

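Some genes on the path of pyruvate into mitochondria were called. Relative to the median locus, MPC2 and MPC1, the subunits of the mitochondrial pyruvate carrier, rose by 1.75 ± 0.13 and 1.06 ± 0.14 on the log2 scale in H/R versus control (limma adjusted p = 7.34e-06 and 0.000176), and by a further 0.58 ± 0.13 and 0.47 ± 0.14 in GA+H/R versus H/R (adjusted p = 0.00994 and 0.0263). PDK2, a pyruvate dehydrogenase kinase that is not a classical HIF target, rose by 1.22 ± 0.10 in H/R (adjusted p = 1.28e-05), where PDK1 fell. Of 13 genes of the pyruvate dehydrogenase list, 4 rose and 4 fell in H/R versus control, a share near the 29.2% and 28.4% of all loci. On the deposited scale 1 rose and 11 fell. In GA+H/R versus H/R 2 rose and 1 fell, beside 18.7% and 15.2% of all loci. On the deposited scale 0 rose and 10 fell there, and the highest log2 change of the list was -0.08. The part of transcript length in these changes was not tested. Of 15 enzymes of the tricarboxylic acid cycle, 8 rose and 1 fell in H/R versus control, and 8 rose and 0 fell in GA+H/R versus H/R, where 18.7% of all loci rose and 15.2% fell, while on the deposited scale 0 rose and 14 and 11 fell. MDH2 (malate dehydrogenase) rose by 1.07 ± 0.09 in H/R (adjusted p = 1.42e-05).

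Of 7 pentose phosphate genes, 2 rose and 0 fell in H/R versus control, beside 29.2% and 28.4% of all loci, while on the deposited scale 7 fell. TKT, transketolase, rose by 0.90 ± 0.07 (limma adjusted p = 1.07e-05). Of 9 glycogen genes, 1 rose and 4 fell in that comparison; on the deposited scale 9 fell. Of the gluconeogenesis list 2 genes were tested, and PCK2, the mitochondrial carboxykinase, rose by 0.24 ± 0.09 (adjusted p = 0.0492), while on the deposited scale both fell.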
